A study of Mus musculus with 24 samples.

Results

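The comparison described here set 2 antiestrogens against each other in P815 cells, a mouse mastocytoma line that grows as transformed mast cells in culture. The group ICI (3 libraries) received ICI-182780, also called fulvestrant, and the group Tamo (3 libraries) received tamoxifen, each for 24 h and without added estradiol. These 6 libraries were chosen by their labels from the 24 of the series, which form 8 groups of 3, and were numbered 1 to 3 in each group. Both compounds were also given together with β-estradiol for 24 h (groups ICI_E2 and Tamo_E2, 3 libraries each), and a group NC of 3 libraries carried a negative control vector and no compound. The remaining 9 libraries (NC with estradiol, and cells with an Esr1-specific short hairpin RNA with or without estradiol) entered the fit and the ranges of other libraries only. No dose is labelled, so it is not known whether the compounds were matched in dose. No vehicle-only group is labelled, and the ICI and Tamo cells are not labelled as carrying a vector. All cells grew in medium with 10% fetal bovine serum, which is not labelled as stripped of steroids. The labels do not say whether libraries of a group came from separate cultures, so p-values speak only of how far these libraries differ, and that spread could be technical.

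As background, estrogen receptors are transcription factors that recruit coactivators when estradiol is bound. ICI-182780 is a steroid, an estradiol analog with a long side chain, and is known to block the receptor and to cause its degradation. Tamoxifen is a nonsteroidal triphenylethylene that acts as antagonist or agonist depending on the tissue. At high doses tamoxifen also binds sterol-processing enzymes, collects in lysosomes and affects cholesterol synthesis, and both compounds can activate the membrane receptor GPER1. Mast cells store histamine and proteases in granules and depend on the receptor KIT.

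The libraries held 45.5 to 54.3 M estimated counts, and 18741 to 20335 genes had a count. The mast cell genes Kit (98.3 to 175 FPKM, fragments per kilobase of transcript scaled to library depth), Cpa3 (134 to 299 FPKM), Gata2, Srgn and Hdc were present in all 6 libraries, whereas Fcer1a, which encodes the ligand-binding chain of the IgE receptor, reached at most 48 estimated counts and Ms4a2, its beta chain, at most 12. A count of up to 12 in a library (about 3 read pairs) was taken as the limit of detection. Of 8 lymphocyte markers, 4 had no count in any of the 6 libraries, and the summed level of the 8 was 0 to 0.184 FPKM in ICI and 0.113 to 0.248 FPKM in Tamo. Of 11 macrophage markers, Cd68 (18.6 to 25.2 FPKM) and Lyz2 (3.05 to 4.95 FPKM) were above 1 FPKM in all 6 libraries, Itgam had no count, and the sums ran from 24.7 to 29.3 FPKM in ICI and 24.1 to 32.5 FPKM in Tamo. The share of counts in mitochondrially encoded genes was 5.28% ± 0.22 (SD, n = 3) in ICI and 5.10% ± 0.30 (SD, n = 3) in Tamo (exact two-sided permutation test, p = 0.4). The share in cytosolic ribosomal protein genes was 5.80% ± 0.84 and 6.01% ± 1.31 (SD, n = 3 each; exact two-sided permutation test, p = 0.8). With 3 libraries against 3, this exact permutation test cannot go below p = 0.1.

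The target receptors were scarce or not detected in these cells. Esr1, which encodes estrogen receptor alpha, stood at 0.330, 0.520 and 0.217 FPKM in ICI libraries 1 to 3 and at 0.408, 0.360 and 0.219 FPKM in Tamo libraries 1 to 3. The 2 groups overlapped, the NC libraries had 0.404, 0.435 and 0.187 FPKM, and the gene did not reach the level needed for the test. These are transcript levels, on which the receptor protein that ICI-182780 is known to degrade cannot be read. Esr2 (estrogen receptor beta), Pgr (progesterone receptor, a classical estrogen target) and Ahr (a xenobiotic receptor that tamoxifen metabolites can bind) had no count in any of the 6 libraries. Gper1, the membrane receptor, had at most 4 counts in a library. Greb1, an estrogen-induced cofactor of the receptor in breast cells, was read at 3.46, 3.75 and 3.13 FPKM in ICI and at 4.46, 4.02 and 2.80 FPKM in Tamo. Its groups overlapped, and the difference ICI minus Tamo was -0.13 ± 0.30 (log2, SE), with a 95% interval of -0.76 to 0.50.

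Across the transcriptome the 2 compounds gave no gene that passed the test. Of 12183 genes tested, 0 (0%) had an adjusted p under 0.05 in edgeR's quasi-likelihood test with Benjamini-Hochberg adjustment, and the smallest adjusted p was 0.215, for Esco1. At an unadjusted p under 0.05 there were 392 genes (3.22%), 214 higher in ICI (1.76%) and 178 higher in Tamo (1.46%). With the replicate number as a block, 0 genes (0%) passed, the smallest edgeR adjusted p was 0.0703, again for Esco1, and 986 genes (8.09%) had an unadjusted p under 0.05, 576 higher in ICI (4.73%) and 410 higher in Tamo (3.37%). Limma on log2(FPKM + 1) called 0 genes, and DESeq2 called 7. The DESeq2 calls were Esco1, Caap1, Arfip2 and the mitochondrial transfer RNA gene mt-Te, higher in ICI, and Gm20716, Rps24-ps3 and Gm5805, higher in Tamo. In log2 CPM (counts scaled to library size), 673 genes (5.52%) had ICI and Tamo libraries that did not overlap, 330 higher in ICI (2.71%) and 343 higher in Tamo (2.82%).

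A gene that missed the threshold was not thereby shown to respond alike, so the width of the intervals matters. In the fit without the replicate block, the median SE of the log2 fold change was 0.21. The median absolute fold change was 0.12 on the log2 scale. Every SE and interval printed here is from that fit, so it also carries the spread between replicate numbers. The 95% interval lay within 2-fold either way for 79.4% of the genes and within 1.5-fold for 50.6%. Among the 4743 genes with a mean of 10 FPKM or more over the 6 libraries these shares were 92.2% and 71.9%. In that fit, differences above 2-fold were therefore outside the interval for most well-expressed genes, while differences under 1.5-fold were often inside it. Intervals were not computed for the fit with the block. An absolute log2 fold change of 1 or more was estimated for 232 genes, of which 111 had a mean under 1 FPKM, 30 had a mean of 10 FPKM or more and 183 were not protein-coding or carried a predicted name.

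**Figure D1:**
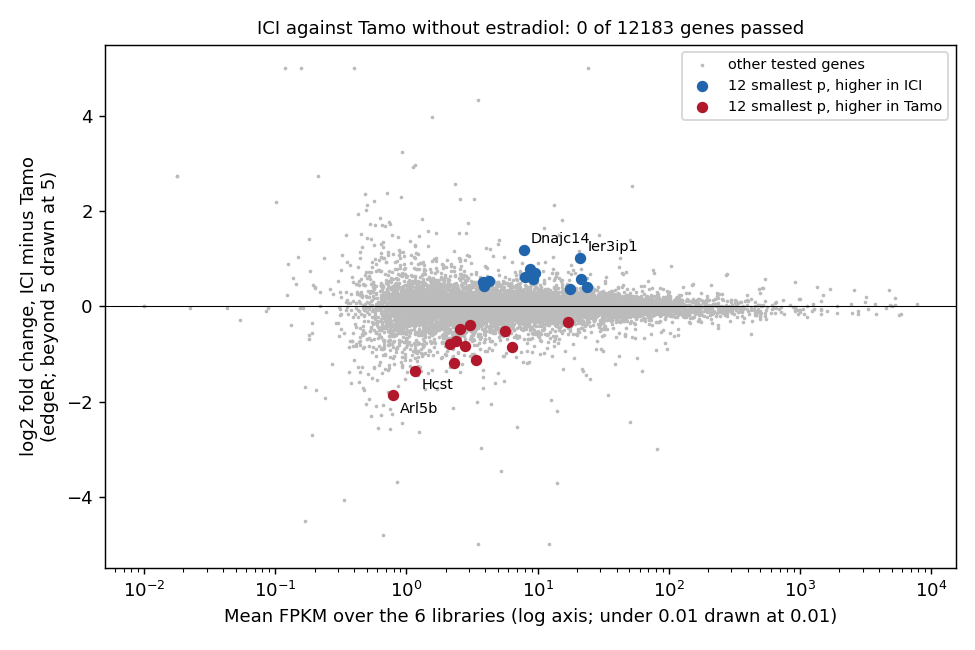
The log2 fold change of ICI over Tamo (edgeR, vertical axis) is plotted against the mean FPKM of the 6 libraries (log axis) for the 12183 genes tested. The 12 protein-coding genes of smallest p in each direction are coloured; most genes lie near 0 and the spread is widest at low FPKM, where Arl5b and Hcst sit.

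The replicate number separated the 6 libraries more than the compound did. Over the 4743 well-expressed genes, ICI and Tamo libraries of the same number differed by a median of 0.0969 (number 1), 0.176 (number 2) and 0.139 (number 3) on the log2 scale. Libraries of the same compound differed by more, from 0.194 to 0.230 within ICI and from 0.211 to 0.347 within Tamo. Every same-number pair across compounds was thus closer than every pair of libraries of the same compound. Between compounds at different numbers the median difference was 0.203 to 0.316. Tamo library 2 lay farthest from the rest, at 0.304 and 0.347 from the other Tamo libraries. In a principal component analysis of the 6 libraries, the first component (31.5% of the variance) placed ICI 2 and Tamo 2 at -25.5 and -49.1 and the other libraries between 11.04 and 25.3. The second component (26.2%) placed numbers 1 at 33.2 and 24.0 and numbers 3 at -25.4 and -37.9. The third component (16.0%) had the ICI libraries at 20.6, 1.49 and 26.9 and the Tamo libraries at -28.5, -2.27 and -18.2.

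**Figure D2:**
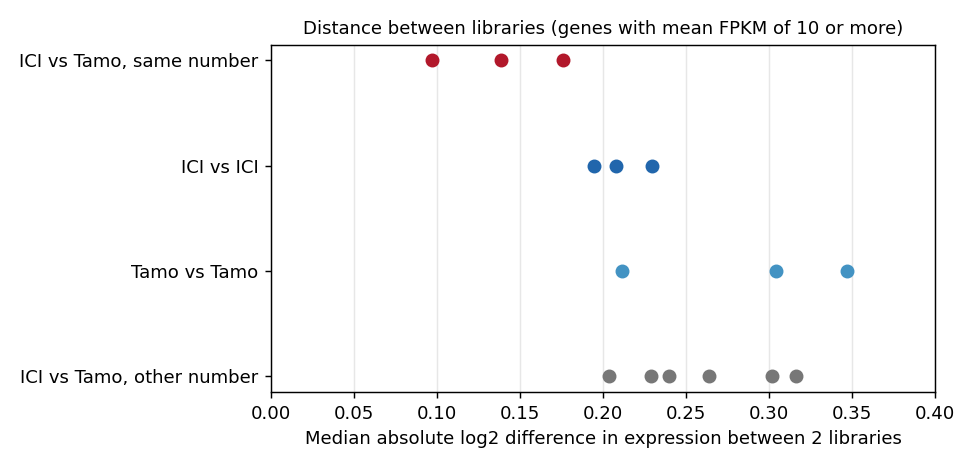
Each point is a pair of libraries, placed by the median absolute log2 difference over 4743 genes with a mean of 10 FPKM or more. The 3 ICI against Tamo pairs of the same number (0.0969 to 0.176) lie below all pairs within ICI (0.194 to 0.230) or within Tamo (0.211 to 0.347).

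The 3 matched pairs gave little agreement on which genes differed. Across all tested genes, the ICI minus Tamo differences of pairs 1 and 2 had a Spearman rho of 0.078, pairs 1 and 3 of 0.151 and pairs 2 and 3 of 0.012; genes are not independent replicates and these values are descriptions. Among the well-expressed genes the values were 0.163, 0.257 and 0.074. ICI was higher in all 3 pairs for 1916 genes (15.7%) and Tamo for 1913 (15.7%).

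Among protein-coding genes higher in ICI, the smallest p belonged to Esco1, an acetyltransferase that acts on the cohesin ring holding sister chromatids together. Esco1 was at 11.05, 11.96 and 10.3 FPKM in ICI and at 7.32, 7.94 and 7.07 FPKM in Tamo. The groups did not overlap, and the Tamo libraries lay below each of the 18 other libraries of the series (8.68 to 12.2 FPKM). The difference was 0.57 ± 0.10 (log2, SE; 1.48-fold, 95% interval 1.28 to 1.71), at an edgeR adjusted p of 0.215. Arfip2 encodes an arfaptin, a protein of Golgi membranes that binds ARF-family GTPases. It is at chromosome 7, 105634203 to 105640416 (GRCm38), and overlaps Timm10b on the opposite strand, whose reads cannot be told apart here. Arfip2 was at 13.1, 10.8 and 11.8 FPKM in ICI and 7.98, 6.92 and 6.70 FPKM in Tamo, a difference of 0.71 ± 0.14 (log2, SE; edgeR adjusted p = 0.347). In 17 of the 18 other libraries it stood above all 3 Tamo libraries. Caap1, which encodes a regulator of caspase activity in apoptosis, had 5.17, 4.81 and 5.23 FPKM in ICI and 3.85, 3.09 and 3.55 FPKM in Tamo (0.52 ± 0.11, log2, SE; edgeR adjusted p = 0.477). All 18 other libraries were above Tamo for this gene.

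Syncrip, an RNA-binding protein of messenger RNA splicing and transport, was read at 25.2, 29.5 and 22.3 FPKM in ICI and at 17.1, 16.8 and 17.5 FPKM in Tamo (0.57 ± 0.14, log2, SE; edgeR adjusted p = 0.652). Its Tamo libraries were close to each other and below all ICI libraries. Dnajc14, a J-domain cochaperone of the endoplasmic reticulum, had 12.5, 11.8 and 8.40 FPKM in ICI and 5.43, 4.29 and 4.56 FPKM in Tamo, a difference of 1.18 ± 0.28 (log2, SE; edgeR adjusted p = 0.652). Dnajc14 overlaps Ormdl2, Tmem198b and Sarnp in the annotation, so its reads are uncertain. Cdkn1b encodes p27, the inhibitor of cyclin-dependent kinases that holds cells in G1. It was at 10.6, 11.5 and 7.21 FPKM in ICI and at 6.15, 6.28 and 6.42 FPKM in Tamo, and NC stood at 9.80 ± 1.85 FPKM (SD, n = 3). The ICI minus Tamo difference of Cdkn1b was 0.62 ± 0.17 (log2, SE; edgeR adjusted p = 1). ICI library 3 was only slightly above the highest Tamo library.

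The other ICI-higher genes of smallest p were Tmed5 and Tmed7 (cargo receptors of early secretory vesicles), Orc4 (a subunit of the origin recognition complex), Ier3ip1, Hccs (the enzyme that attaches heme to cytochrome c) and Fam204a. Their differences ran from 0.37 ± 0.10 (Tmed7) to 1.01 ± 0.28 (Ier3ip1; log2, SE). Ier3ip1 had 29.3, 26.9 and 28.4 FPKM in ICI and 15.3, 11.8 and 14.5 FPKM in Tamo, and 17 of the 18 other libraries lay below all 3 ICI libraries. Hccs rested on numbers 2 and 3: it had 9.09, 11.9 and 12.2 FPKM in ICI and 8.92, 5.52 and 4.78 FPKM in Tamo, and the difference of pair 1 was 0.00892 (log2). Without number 1 in all groups, Hccs passed edgeR's test at 1.22 (log2; adjusted p = 0.0033), together with Asah1 and Otud6b, which were named after their values were seen. For 11 of these 12 genes, at least 10 of the 18 other libraries lay above all 3 Tamo libraries, and for 4 genes at least 10 lay below all 3 ICI libraries. These genes were picked for their difference, so the counts are a description.

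Foxp1, a forkhead repressor of transcription known from lymphocyte development, had the smallest p among protein-coding genes higher in Tamo. It is at chromosome 6, 98925338 to 99521162 (GRCm38). Foxp1 was at 1.95, 2.32 and 1.85 FPKM in ICI and at 4.35, 3.55 and 2.89 FPKM in Tamo, with no overlap. The difference was -0.82 ± 0.20 (log2, SE; edgeR adjusted p = 0.652), and 16 of the 18 other libraries lay below all 3 Tamo libraries. Sh2d5, an adaptor with an SH2 domain, had 2.86, 1.68 and 1.83 FPKM in ICI and 3.67, 6.12 and 4.10 FPKM in Tamo (-1.13 ± 0.30, log2, SE; edgeR adjusted p = 1). Phf21b, a PHD finger protein, had 1.43, 1.73 and 1.60 FPKM in ICI and 2.61, 3.40 and 2.21 FPKM in Tamo (-0.79 ± 0.21, log2, SE; edgeR adjusted p = 1). In all 3 genes every Tamo library was above every ICI library.

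The levels of the other Tamo-higher genes were lower or their groups closer. Arl5b, a small GTPase of the trans-Golgi, had 0.193, 0.524 and 0.307 FPKM in ICI and 1.66, 1.33 and 0.749 FPKM in Tamo (-1.86 ± 0.58, log2, SE). ICI was the low group there, since 14 of the 18 other libraries lay above all ICI libraries. Hcst, the adaptor DAP10 of activating immune receptors, was at 0.521, 0.820 and 0.580 FPKM in ICI and 1.35, 1.43 and 2.26 FPKM in Tamo (-1.35 ± 0.44, log2, SE). Adat3, a subunit of the deaminase that makes inosine in transfer RNA, had 2.18, 0.554 and 1.48 FPKM in ICI and 3.16, 3.86 and 2.59 FPKM in Tamo (-1.19 ± 0.40, log2, SE). The remaining 6 were Wars2 (mitochondrial tryptophanyl-tRNA synthetase), Arid3b, Mier2, Adgrl1 (latrophilin 1), Slc35a4 and Mpv17 (a mitochondrial inner membrane protein), with differences from -0.34 ± 0.11 (Slc35a4) to -0.85 ± 0.28 (Adgrl1; log2, SE). Adgrl1 and Slc35a4 overlapped between the groups. For 7 of the 12 Tamo-higher genes at least 10 of the 18 other libraries lay below all Tamo libraries, and for 7 at least 10 lay above all ICI libraries.

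**Figure D3:**
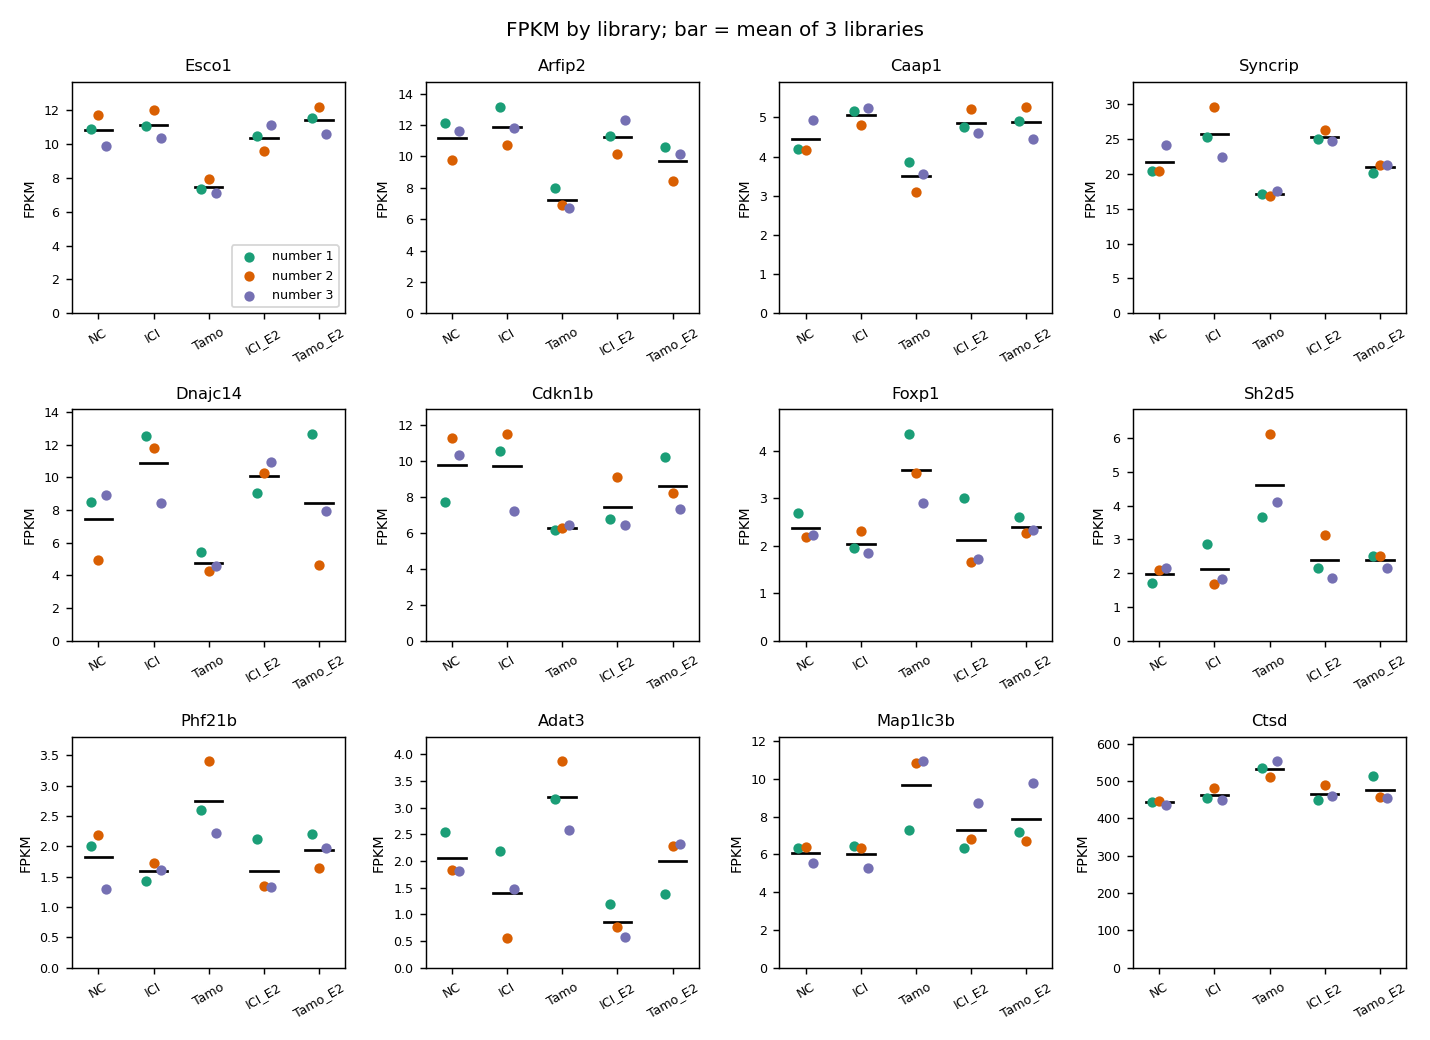
FPKM in each library is shown for 12 genes in NC, ICI, Tamo, ICI_E2 and Tamo_E2, coloured by replicate number, with the mean of the 3 libraries as a bar. Esco1, Arfip2 and Caap1 have Tamo as the low group and Foxp1 and Sh2d5 have Tamo as the high group, while Tamo_E2 lies near NC for Esco1 and Foxp1; none of these genes passed edgeR's test.

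Some features outside the rule for named genes had small p-values too and were chosen after their values were seen. The ribosomal protein pseudogene Rps24-ps3 had 12.9, 12.8 and 12.4 FPKM in ICI and 38.1, 23.6 and 40.2 FPKM in Tamo (-1.43 ± 0.28, log2, SE). Gm5805, a predicted gene, had 31.8, 18.8 and 31.5 FPKM in ICI and 56.5, 49.7 and 60.8 FPKM in Tamo (-1.04 ± 0.22, log2, SE). Reads of a pseudogene can come from its parent gene, so both values are uncertain. mt-Te, the mitochondrial transfer RNA for glutamate, had 727, 568 and 650 FPKM in ICI and 531, 400 and 370 FPKM in Tamo (0.57 ± 0.13, log2, SE). A mitochondrial protein-coding gene on the same strand as mt-Te, mt-Nd6, was at 1703, 1455 and 1772 FPKM in ICI and 1448, 1325 and 1355 FPKM in Tamo (0.25 ± 0.09, log2, SE; edgeR adjusted p = 1). Gm20716 had no count in ICI or in Tamo library 1 and 2.73 and 18.3 FPKM in Tamo libraries 2 and 3, so its DESeq2 call rested on 2 libraries.

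The same contrast was measured in other libraries, with estradiol added to both compounds. ICI_E2 against Tamo_E2 gave 0 of 12183 genes (0%) in edgeR, with 246 (2.02%) at an unadjusted p under 0.05, or 668 (5.48%) with the replicate block. Across genes, the log2 fold changes without and with estradiol had a Pearson r of -0.0086 and a Spearman rho of 0.044. The change of the difference with estradiol was itself tested, and 0 genes passed in edgeR (332, or 2.73%, at an unadjusted p under 0.05; 829, or 6.8%, with the block). The mean difference over both conditions also gave 0 genes in edgeR (331, or 2.72%, at an unadjusted p under 0.05; 848, or 6.96%, with the block). DESeq2 called 2, 3 and 1 genes in these 3 contrasts.

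The 24 genes described above were mostly near 0 with estradiol. Of the 12 ICI-higher genes, 6 had the same sign with estradiol, and their median log2 difference there was -0.03. Esco1 was 0.57 ± 0.10 without and -0.13 ± 0.10 with estradiol (log2, SE), a change of -0.70 ± 0.14 that did not pass edgeR's test (adjusted p = 1). Arfip2 was 0.22 ± 0.14 and Syncrip 0.28 ± 0.14 with estradiol. Of the 12 Tamo-higher genes, 7 had the same sign. Adat3 had the largest difference of the 24 genes with estradiol, -1.22 ± 0.41 (log2, SE), and did not pass edgeR's test. It had 1.20, 0.767 and 0.585 FPKM in ICI_E2 and 1.39, 2.28 and 2.31 FPKM in Tamo_E2. Without estradiol, its difference ran from -1.64 to -0.67 when libraries were left out. Foxp1 was -0.17 ± 0.20 and Sh2d5 0.00 ± 0.30 with estradiol.

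**Figure D4:**
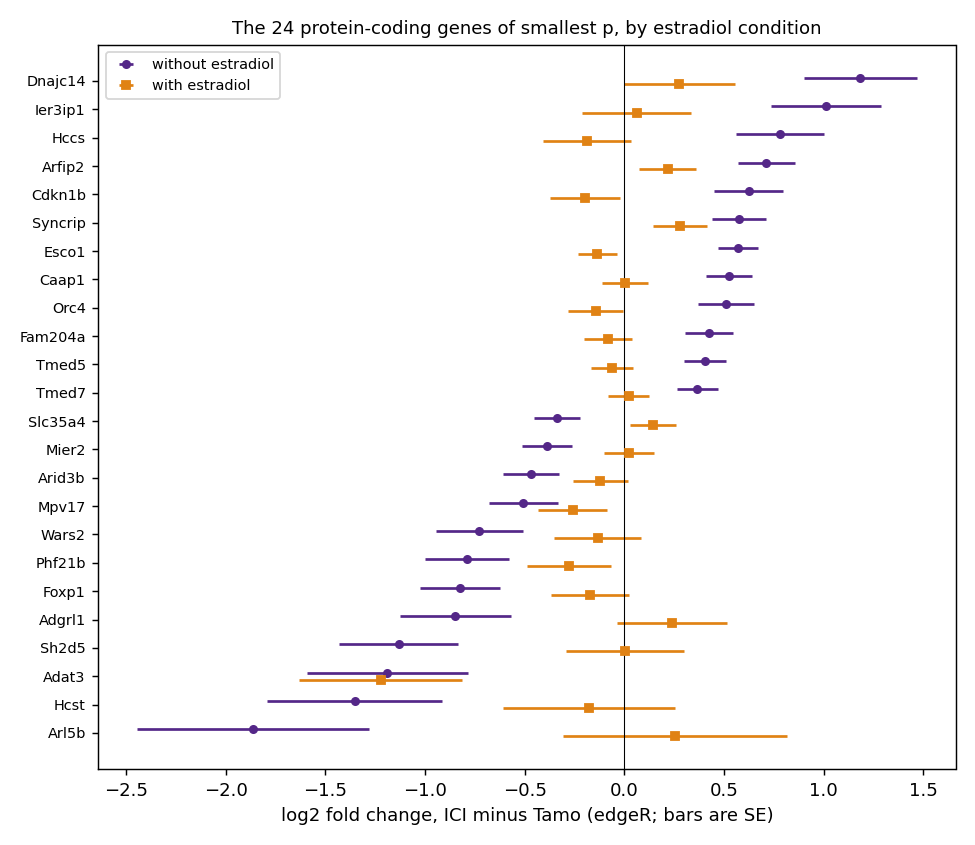
The log2 fold change of ICI over Tamo is drawn with its SE (edgeR) for the 24 protein-coding genes of smallest p, without estradiol (circles) and with it (squares). Most squares lie near 0. Adat3, the gene with the largest difference with estradiol, is at -1.19 without and -1.22 with it, and did not pass the test.

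NC is no vehicle control, and both compounds are set against the same 3 NC libraries, so the values stand side by side only. Esco1 was 0.04 ± 0.10 in ICI minus NC and -0.53 ± 0.10 in Tamo minus NC (log2, SE). Arfip2 was 0.09 ± 0.14 and -0.63 ± 0.14, and Cdkn1b -0.01 ± 0.17 and -0.64 ± 0.17. Foxp1 was -0.22 ± 0.20 in ICI minus NC and 0.61 ± 0.20 in Tamo minus NC. Ier3ip1 and Arl5b had the larger value in ICI: 0.86 ± 0.28 against -0.16 ± 0.27 for Ier3ip1, and -2.003 ± 0.58 against -0.14 ± 0.56 for Arl5b.

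Gene lists for pathways these compounds or this cell type are known for held no member that passed, in the fit with or without the replicate block. Lists are described by their counts and medians, beside a median log2 fold change of -0.01 over all genes tested. Values given without Tamo library 2 leave ICI library 2 without a same-number partner, so they also carry the difference between replicate numbers. Of 24 estrogen receptors and coregulators 17 were tested, with a median of -0.10. The medians of this list in pairs 1 to 3 were -0.05, -0.26 and 0.20. The list median was 0.15 without Tamo library 2 and 0.08 without number 2 in all groups. Med1, a Mediator subunit that binds nuclear receptors, had 6.60, 8.498 and 9.04 FPKM in ICI and 6.82, 14.1 and 7.55 FPKM in Tamo, where library 2 alone was high. Of 25 estrogen response genes, taken from studies in other tissues, 16 were tested, with a median of -0.06. It was 0.02 without Tamo library 2 and -0.09 without number 2 in all groups. Tamo was higher in all 3 pairs for 5 of the 16 and ICI for 2, against 15.7% of all genes in each direction. With the block, 3 of the 16 had an unadjusted edgeR p under 0.05 (1 higher in ICI, 2 in Tamo), against 8.09% of all genes. Without the block 1 of the 16 had such a p, against 3.22% of all genes. Ctsd, which encodes cathepsin D, a lysosomal protease and an estrogen target in breast cells, was at 456, 482 and 450 FPKM in ICI and 535, 511 and 553 FPKM in Tamo. Its groups did not overlap, and the difference was -0.21 ± 0.08 (log2, SE; edgeR adjusted p = 1, or 0.418 with the block). Slc7a5, a large neutral amino acid transporter, had 295, 308 and 272 FPKM in ICI and 313, 354 and 294 FPKM in Tamo, with overlap.

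Sterol genes showed no difference that passed the test. The 20 cholesterol synthesis genes were all tested and had a median of 0.02, which was -0.01 without Tamo library 2 and -0.05 without number 2 in all groups. The 95% interval was within 2-fold for 18 of them and within 1.5-fold for 7. Hmgcs1, an early enzyme of the pathway, had 63.0, 49.4 and 67.6 FPKM in ICI and 33.7, 62.3 and 62.7 FPKM in Tamo, with Tamo library 1 low. Sqle, squalene epoxidase, had 31.0, 32.5 and 31.0 FPKM in ICI and 33.4, 28.6 and 32.2 FPKM in Tamo, a difference of -0.01 ± 0.15 (log2, SE). The list of proteins around the sterol side of tamoxifen binding (10 of 10 tested, median -0.01, or -0.04 without Tamo library 2 and -0.08 without number 2) had 10 of 10 intervals within 2-fold and 7 within 1.5-fold. Ebp, the sterol isomerase of that site, was at 13.1, 12.8 and 13.8 FPKM in ICI and 11.9, 10.97 and 15.6 FPKM in Tamo. Its groups overlapped.

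Lysosome genes had a median of -0.06, and 27 of the 27 tested had an interval within 2-fold. Tamo was higher in all 3 pairs for 10 of the 27 and ICI for 1, against 15.7% of all genes in each direction. With the replicate block, 6 had an unadjusted edgeR p under 0.05, all higher in Tamo, against 3.37% of all genes in that direction. Without the block 2 of the 27 had such a p, against 3.22% of all genes in either direction. Gaa, acid alpha-glucosidase, had 45.6, 47.7 and 44.8 FPKM in ICI and 51.0, 55.1 and 49.3 FPKM in Tamo, without overlap (-0.18 ± 0.08, log2, SE; edgeR adjusted p = 1). Without Tamo library 2 the list median was -0.09. Asah1, a member of this list named after its values were seen, was higher in ICI without number 1 in all groups. Its difference there was 0.80 (log2), at an edgeR adjusted p of 0.0207. Over all settings with libraries left out it ran from -0.09 to 0.80. Autophagy genes (21 of 22 tested) had a median of -0.04, or 0.03 without Tamo library 2 and -0.00097 without number 2 in all groups. Their member Map1lc3b, which encodes the LC3B protein of autophagosome membranes, had 6.46, 6.35 and 5.28 FPKM in ICI and 7.29, 10.8 and 10.9 FPKM in Tamo. The groups did not overlap, NC stood at 6.34, 6.38 and 5.57 FPKM, and the difference was -0.69 ± 0.24 (log2, SE; edgeR adjusted p = 1). Uvrag, an autophagy and endosome factor, had 1.74, 5.21 and 4.61 FPKM in ICI and 2.22, 3.09 and 1.87 FPKM in Tamo, with overlap.

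MAPK feedback and immediate early genes had the lowest median among the lists with more than 5 members tested, -0.20 over 27 genes. The medians of pairs 1 to 3 were -0.16, -0.16 and -0.18. With estradiol the list median was -0.20, with uneven medians of -0.19, -0.04 and -0.28 in pairs 1 to 3. Tamo was higher in all 3 pairs for 12 of the 27 and ICI for 1, against 15.7% of all genes in each direction. With the block, 3 of the 27 had an unadjusted edgeR p under 0.05, all higher in Tamo, against 3.37% of all genes in that direction. Without the block 0 of the 27 had such a p, against 3.22% of all genes in either direction. Without Tamo library 2 the list median was -0.03, but ICI library 2 then had no same-number partner. Without number 2 in all groups it was -0.16. Junb, an AP-1 subunit, had 44.2, 44.0 and 46.2 FPKM in ICI and 48.8, 46.6 and 59.9 FPKM in Tamo, without overlap (-0.22 ± 0.13, log2, SE). Spry4, a feedback inhibitor of the pathway, had 8.54, 9.14 and 8.58 FPKM in ICI and 9.41, 11.2 and 8.96 FPKM in Tamo, with overlap. Jun, named after its values were seen, had 20.4, 33.0 and 29.998 FPKM in ICI and 30.5, 37.5 and 37.0 FPKM in Tamo. Each pair had Tamo higher for Jun and the groups overlapped. Fosl2, Egr1, Dusp1 and Klf6 were picked in the same way and changed sign when libraries were left out. Fosl2 ran from -0.70 to 0.21, Egr1 from -0.35 to 0.01, Dusp1 from -0.58 to 0.006 and Klf6 from -0.38 to 0.004 (log2).

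Mitosis genes had the highest list median, 0.08 over 28 genes (0.08, 0.20 and 0.08 in pairs 1 to 3). It was 0.15 without Tamo library 2 and 0.11 without number 2 in all groups. ICI was higher in all 3 pairs for 11 of the 28 and Tamo for 0, against 15.7% of all genes in each direction. Ccna2, cyclin A2, had 22.8, 37.1 and 46.6 FPKM in ICI and 19.7, 27.6 and 40.1 FPKM in Tamo. Both compounds were lowest at number 1 and highest at number 3, so the ICI minus Tamo difference was 0.27 ± 0.41 (log2, SE) with overlapping groups, and 14 of the 28 genes had an interval within 2-fold. Nusap1, a spindle protein, had 6.07, 8.27 and 10.8 FPKM in ICI and 4.84, 5.93 and 8.35 FPKM in Tamo (0.38 ± 0.33, log2, SE; edgeR adjusted p = 1). With the block, 5 of the 28 had an unadjusted edgeR p under 0.05, all higher in ICI, against 4.73% of all genes in that direction. Without the block 0 of the 28 had such a p, against 3.22% of all genes in either direction. With estradiol the list median was 0.03. Mki67, a proliferation marker chosen after its values were seen, had 7.92, 14.4 and 16.4 FPKM in ICI and 7.13, 19.2 and 13.01 FPKM in Tamo.

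Mast cell genes (22 of 27 tested) had a median of -0.09, or -0.14 without Tamo library 2 and -0.09 without number 2 in all groups. The medians of pairs 1 to 3 were -0.08, -0.06 and -0.08, and with estradiol the list median was -0.03. Tamo was higher in all 3 pairs for 7 of the 22 and ICI for 3, against 15.7% of all genes in each direction. Kit had 126, 144 and 103 FPKM in ICI and 133, 175 and 98.3 FPKM in Tamo, a difference of -0.12 ± 0.17 (log2, SE). Cpa3, mast cell carboxypeptidase, had 290, 177 and 184 FPKM in ICI and 299, 134 and 198 FPKM in Tamo (0.03 ± 0.27, log2, SE). In both genes the groups overlapped. Gata2, a transcription factor of mast cells, was at 161, 161 and 142 FPKM in ICI and 174, 261 and 138 FPKM in Tamo, with Tamo library 2 high. Nlrp3, the inflammasome sensor, was also highest in that library, with 0.318, 0.543 and 0.245 FPKM in ICI and 0.518, 1.44 and 0.219 FPKM in Tamo (-0.96 ± 0.60, log2, SE).

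Ribosomal protein and oxidative phosphorylation genes went different ways in the 3 pairs. The cytosolic ribosomal protein genes (80 of 83 tested) had a median of -0.06, with -0.06, 0.16 and -0.22 in pairs 1 to 3, and 0.13 with estradiol. Without Tamo library 2, whose ribosomal protein share was the lowest of all 24 libraries (4.50%), the list median was -0.25. Without number 2 in all groups it was -0.14. Nuclear oxidative phosphorylation genes (77 of 81 tested) had a median of -0.06, with -0.04, 0.08 and -0.20 in pairs 1 to 3. It was 0.15 with estradiol, -0.19 without Tamo library 2 and -0.12 without number 2 in all groups. Rpl11, a protein of the large ribosomal subunit, had 233, 163 and 209 FPKM in ICI and 326, 187 and 304 FPKM in Tamo, with overlap (-0.45 ± 0.20, log2, SE).

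Among the stress and survival lists, the unfolded protein response, p53 and BCL2 lists were close to the median of all genes. The unfolded protein response had a median of 0.03 (0.02 without Tamo library 2 and 0.01 without number 2; 20 of 20 tested, 20 intervals within 2-fold), and Xbp1, its transcription factor, had 32.1, 36.7 and 35.1 FPKM in ICI and 31.3, 26.0 and 33.6 FPKM in Tamo. The amino acid stress response (20 of 22 tested) had a median of -0.06, with Tamo higher in all 3 pairs for 8 genes and ICI for 0. NRF2 and glutathione genes (20 of 21 tested) had a median of -0.08, with Tamo higher in all 3 pairs for 7 and ICI for 0. The share of all genes was 15.7% in each direction. Gclm, a member of the NRF2 list, was higher in ICI without number 3 in all groups and with the block. Its difference there was 0.82 (log2), at an edgeR adjusted p of 0.0469. The p53 targets had a median of -0.02 over 14 genes and the BCL2 family and caspases 0.03 over 18. Without number 2 in all groups the p53 median was -0.11, and the BCL2 list was at -0.04 without Tamo library 2 and -0.0015 without number 2. Cdkn1a, which encodes p21 and belongs to the p53 targets and the G1 list, had 118, 138 and 123 FPKM in ICI and 126, 155 and 146 FPKM in Tamo, with overlap. The remaining lists with at least 7 members tested had medians from -0.10 (interferon response) to 0.04 (mitochondrially encoded genes). The mitochondrial median was -0.02 without Tamo library 2 and 0.04 without number 2 in all groups. The interferon list had medians of 0.06, -0.17 and 0.06 in pairs 1 to 3. The interferon median was 0.34 without Tamo library 2 and 0.02 without number 2 in all groups.

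**Figure D5:**
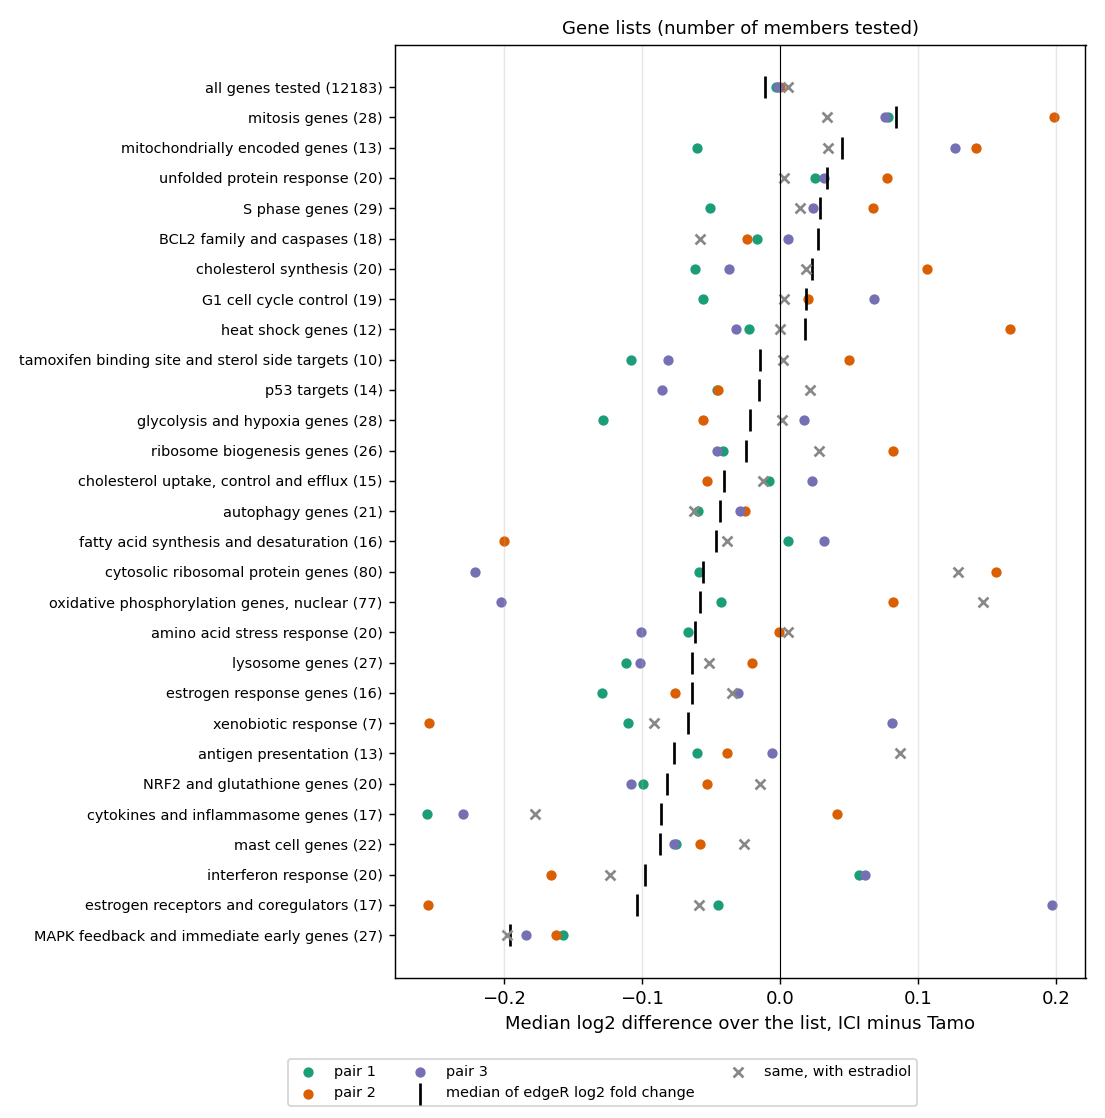
For each gene list (number of members tested in brackets) the points give the median ICI minus Tamo log2 difference in pairs 1, 2 and 3, the bar the median of the edgeR log2 fold changes and the cross the same with estradiol. The mitosis and unfolded protein response lists lie above 0 in all 3 pairs. The MAPK list lies below 0 in all 3 pairs, as do others, among them the lysosome, NRF2 and mast cell lists. Ribosomal protein genes run from -0.22 to 0.16, and no member of any list passed the test.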

How the data were processed

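Total RNA of P815 cells was extracted with TRIzol, per the labels' protocols. Per the submitters' processing notes, cutadapt and HISAT2 were used with GRCm38, without versions. No source used here gives the strand, quantifier or annotation. The authors deposited FPKM values and counts for each library in 1 table of 55385 genes. The deposited counts were treated as estimated counts although they are whole, since a read pair appears worth up to 4 of them. The deposited FPKM values give level per length and are printed as levels.

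A gene was tested if 3 or more of the 24 libraries held it at 1 FPKM or above (12183 genes). edgeR 4.0.16 (quasi-likelihood, TMM scaling, 1 coefficient per group over 24 libraries, R 4.3.3) gave the contrasts, called at a Benjamini-Hochberg adjusted p under 0.05. limma 3.58.1 on log2(FPKM + 1) and DESeq2 1.42.0 on rounded counts were alternatives, with the replicate block, other filters and scalings, and each library left out. The scripts were tested on simulated data. 1 pair of compounds was compared.

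Deviations from the group means of same-numbered ICI and Tamo libraries correlated at 0.327, 0.350 and 0.301, and of different numbers at -0.197 to -0.100, so the numbers were taken as pairing. The pairing is seen in the data and is not stated in the labels. Coordinates and overlaps are from GENCODE on GRCm38. Members and gene lists were chosen with earlier results of these data known. Named genes were the 12 protein-coding genes of smallest p in each direction, the 2 of smallest p in each list, and a few always named; others were named after their values were seen. Not every gene the rule gives is printed, and some always-named genes are not reported here.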

Additional observations from a re-analysis of the deposited data

How the results depend on the processing

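The ICI minus Tamo count of 0 genes was also 0 under the replicate block, upper-quartile scaling, no filter, a filter of 5 FPKM, counts divided by 4 and limma. DESeq2 called 7 without estradiol, 2 with estradiol (Gm43064 and Eif1a), 3 for the change with estradiol and 1 for the mean. With the libraries of the contrast only, 1 gene (Eif1a) was called with estradiol and 1 for the change; with the replicate block added, 1 for the change and 1 for the mean. Leaving out libraries gave 0 to 3 genes without estradiol, 0 to 1 with estradiol, 0 to 3 for the change and 0 to 1 for the mean; some of these settings were chosen after seeing the data. The calls without estradiol were Gm8325 (without ICI replicate 3), Cbx1 (without Tamo replicate 3), Hccs, Asah1 and Otud6b (without replicate 1, with or without the block) and P2ry10b, Gm8325 and Gclm (without replicate 3, with the block). The cause was not tested. Genes with an unadjusted p under 0.05 numbered 392 without and 986 with the replicate block. In the edgeR fits on all 24 libraries the block gave 0 calls in each of the 4 contrasts, as did the fits without it; with fewer libraries it did change calls, as in the settings named above.

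Of 2718 values of 119 named genes under the alternatives, 91 changed sign from a main difference no larger than its SE. Another 10 reversed from a main difference larger than its SE. All 10 came from leaving out libraries, over which Med1 ran from -0.478 to 0.146, Scap from -0.310 to 0.0607, Nlrp3 from -1.39 to 0.00374 and Rrp12 from -0.195 to 0.00117, each turned without Tamo replicate 2, and Tap1 from -0.0154 (without replicate 1) to 0.557. With the replicate block, Med1 was 0.102 and Scap 0.00443 without replicate 2, and Tap1 was -0.00194 without replicate 1. The 24 genes of smallest p had 0 changes of direction in 542 values. They were picked for their difference in these same libraries, so a change of sign was unlikely from the start. The count therefore says nothing about whether their differences would repeat. Esr2, Pgr, Ahr and Gper1 had no or few counts, so no difference between the compounds was detectable for them at this depth.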
